A study of Mus musculus with 4 samples.

Results

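The BCL2 family sets the threshold at which a cell dies through its mitochondria. Survival proteins hold the effector proteins in check at the outer mitochondrial membrane, and BH3-only proteins, named after the short helix that they share with the rest of the family, bind the survival proteins or the effectors when the cell is stressed. Once the effectors open the membrane, cytochrome c leaves the mitochondria and starts the caspase cascade. Myeloid leukemia cells are known for their reliance on BCL2 and MCL1, which are drug targets in this disease. The 10 genes were taken by name, with no measured value in the rule: the survival genes Bcl2, Bcl2l1, Mcl1 and Bcl2a1b, the effectors Bax and Bak1, and the BH3-only genes Bid, Bcl2l11, Bbc3 and Pmaip1. Of these 10 genes, 9 had a row among the 17104 genes of the expression table, and Bak1 was not analysed here.

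RNA was sequenced from 4 libraries of YFP+, c-kit+ leukemia stem cells (LSCs) sorted from the bone marrow of male C57 mice with MLL-AF9 acute myeloid leukemia, at week 6 after secondary transplantation. CD37 fl/fl and CD37 -/- cells, with 2 libraries each, were compared to ask what loss of CD37, a tetraspanin of the blood cell surface, did to the transcriptome of these cells. All leukemias came from CD37 fl/fl donor marrow that carried a tamoxifen-inducible Cre from the Rosa26 locus and had received the MLL-AF9 oncogene with YFP from a retrovirus. The primary recipients of the CD37 -/- leukemia were given tamoxifen and those of the CD37 fl/fl leukemia corn oil. The deletion and the exposure to tamoxifen therefore cannot be told apart. Nothing stated whether the 2 libraries of a group came from separate animals, so p-values measure only the spread between these libraries.

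The libraries held 15327357 and 17327704 reads for CD37 fl/fl and 17740466 and 22627494 reads for CD37 -/-, as implied by the deposited values. Levels are given in RPM, the reads of a gene per 1000000 reads of the library. Cd37 itself, measured at 310 and 256 RPM in CD37 fl/fl, was at 127 and 126 RPM in CD37 -/- (log2 fold change -1.15, SE 0.23, limma adjusted p = 0.0520). Kit was present in every library, at 13.9 to 35.5 RPM, and none of the 8 measured genes of a list of LSC and myeloid progenitor markers was at 0. Cd34 was low, at 0.326 to 0.923 RPM. For 3 of the 7 tested (Kit, Ptprc and Meis1) both CD37 -/- values exceeded both CD37 fl/fl values, against 42.2% of all genes tested. For 2 (Mpo and Ctsg) both CD37 -/- values were lower, against 18.6% of all genes tested. CD37 fl/fl replicate 2 stood apart by a low summed level of 7 neutrophil genes, 851 RPM against 5730 to 10295 in the other 3 libraries. Its 8 erythroid genes summed to 6.75 RPM against 72.0 to 708, with the highest value in CD37 -/- replicate 1. For all 6 tested erythroid genes and 4 of 7 neutrophil genes, both CD37 -/- values exceeded both CD37 fl/fl values. This held for 42.2% of all genes tested. CD37 fl/fl replicate 1 stood apart by its summed macrophage and dendritic cell genes. They were at 2153 RPM against 307 in CD37 fl/fl replicate 2 and 147 and 479 in CD37 -/-. The 6 measured T and NK cell genes summed to 112 and 139 RPM in CD37 fl/fl against 50.0 and 49.5 in CD37 -/-, with no overlap and the highest value in CD37 fl/fl replicate 2. Nearly all of this was Nkg7 (111 and 139 against 47.2 and 48.6 RPM), while Cd3d, Cd3g, Cd2, Trbc2 and Klrb1c were each at 0 to 0.733 RPM. The summed B cell genes (92.0 to 120 against 64.0 to 106), stromal and endothelial genes (78.4 to 143 against 96.2 to 155) and megakaryocyte and mast cell genes (18.4 to 42.3 against 13.0 to 22.4) overlapped between CD37 fl/fl and CD37 -/-. The part of these differences in the results below was not tested. In such bulk libraries, fewer cells of a type and less RNA per cell cannot be told apart.

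The coding stretches below show the core of the BH3 helix, since it is through this shared element that members of the family bind each other. They were found by searching the main coding sequence of 8 of the 9 members, all but Pmaip1, for a leucine codon followed, after 3 codons, by a glycine or alanine codon and an aspartate codon. It occurred once in each of the 7 members shown and not in Bcl2a1b. Pmaip1 was not searched, so its absence here does not show that it lacks this pattern. Of the 5741 mouse coding sequences of 576 to 993 bases, 13.0% held it at least once, so the pattern alone does not mark the family. Each stretch has 33 bases and is written in the direction of the mRNA, with the leucine codon and the glycine and aspartate codons in capitals (alanine and aspartate in Bbc3). Positions are those of GRCm38 with GENCODE M21 transcripts, and all 7 stretches lie within 1 coding exon. They are chr1:106712569-106712601 on the minus strand in exon 1 of 2 for Bcl2, chr2:152829691-152829723 on the minus strand in exon 2 of 3 for Bcl2l1, and chr3:95659436-95659468 on the plus strand in exon 1 of 3 for Mcl1. For the death genes they are chr7:45465991-45466023 on the minus strand in exon 3 of 6 for Bax, chr6:120897283-120897315 on the minus strand in exon 4 of 6 for Bid, chr2:128147150-128147182 on the plus strand in exon 3 of 4 for Bcl2l11, and chr7:16313773-16313805 on the plus strand in exon 3 of 4 for Bbc3.
Bcl2: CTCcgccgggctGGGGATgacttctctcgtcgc
Bcl2l1: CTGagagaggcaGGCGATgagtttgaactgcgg
Mcl1: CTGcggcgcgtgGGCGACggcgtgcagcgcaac
Bax: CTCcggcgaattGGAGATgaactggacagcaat
Bid: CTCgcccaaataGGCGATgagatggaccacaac
Bcl2l11: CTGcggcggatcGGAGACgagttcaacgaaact
Bbc3: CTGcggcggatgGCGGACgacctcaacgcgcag

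Levels were first compared between the genes within a library, as RPM per kb of exon. Mcl1, the short-lived survival protein on which myeloid progenitors depend, was the highest of the 9 genes in all 4 libraries. Its level was 124 and 93.8 in CD37 fl/fl against 131 and 136 in CD37 -/-. Bax followed at 112 and 70.7 in CD37 fl/fl against 61.4 and 47.4 in CD37 -/-, and its range overlapped that of Mcl1 above and of Bid below. Bid and Pmaip1 came next, at 30.1 to 49.5 and 29.5 to 42.0 over the 4 libraries, and these ranges overlapped each other. Bcl2l1, which encodes BCL-XL, ranged from 12.5 to 17.8, and Bbc3, which encodes the p53 target PUMA, from 7.34 to 11.0. On this scale the ranges of these 2 genes overlapped neither each other nor those of the genes above and below them. Per kb of gene span their order turned in every library, with Bbc3 at 1.59 to 2.38 and Bcl2l1 at 1.12 to 1.60. At the bottom, Bcl2 (1.06 to 6.19), Bcl2l11 (1.53 to 2.74) and Bcl2a1b (0.559 to 3.93) overlapped, so that no order could be set among them.

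**Figure D1:**
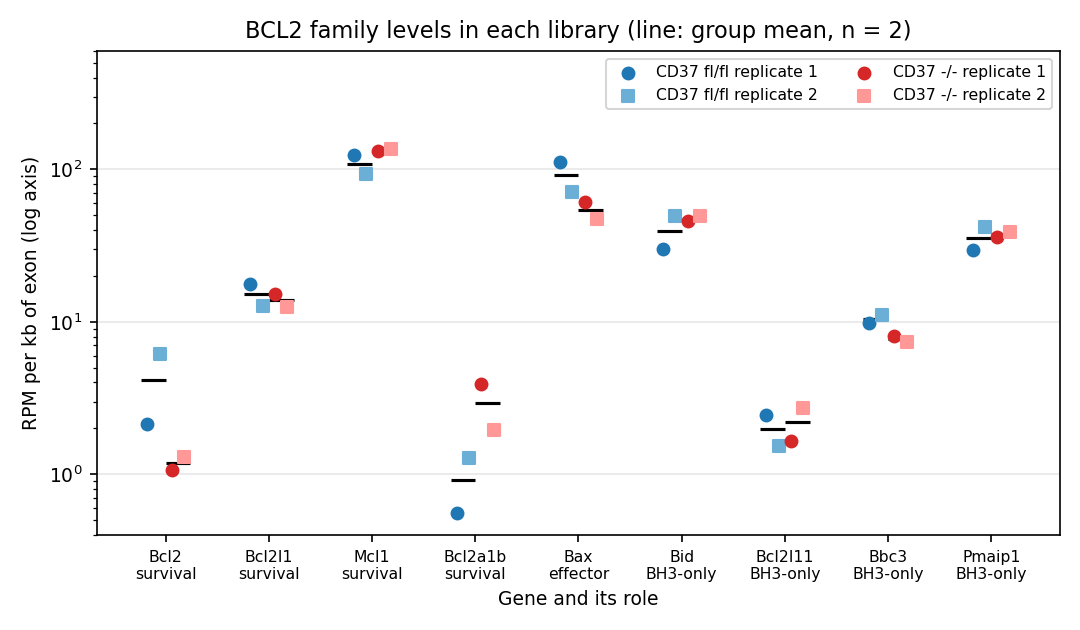
Level of the 9 genes in each of the 4 libraries (y axis, RPM per kb of exon, log axis), with circles for replicate 1, squares for replicate 2 and a line for the group mean. Mcl1 lies between 93.8 and 136 in every library, and Bcl2 lies at 1.06 and 1.29 in CD37 -/- and at 2.14 and 6.19 in CD37 fl/fl.

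Within the summed level of the 4 survival genes, Mcl1 took 82.3% to 89.6% in every library, Bcl2l1 8.24% to 12.3% and Bcl2a1b 0.387% to 2.59%. Bcl2 took 1.48% and 5.43% of this sum in CD37 fl/fl against 0.702% and 0.853% in CD37 -/-. Counted per kb of the whole gene span, introns included, as in the deposited values, Mcl1 took 97.9% to 98.7% and Bcl2l1 1.05% to 1.62%. The span is 1.28 times the exon length for Mcl1, 11.1 times for Bcl2l1 and 19.2 times for Bcl2. Among the 4 BH3-only genes, Bid took 41.9% to 50.2% and Pmaip1 39.5% to 41.1% of the summed level, while Bbc3 took 7.45% to 13.7% and Bcl2l11, which encodes BIM, 1.48% to 3.38%. Per kb of gene span, Pmaip1 rather than Bid was the largest of the 4, at 62.0% to 62.7%. All 9 genes together took 872 to 930 RPM in the 4 libraries. The shares above cover only the listed members. Bcl2a1a, a copy of Bcl2a1b, is left out of the survival sum. Per kb of exon it was at 40.1 and 15.4 in CD37 fl/fl and at 41.6 and 37.2 in CD37 -/-. This was above Bcl2l1 in every library, so each survival share would be lower with it. Bad, a BH3-only gene also left out, was at 36.0 and 30.9 in CD37 fl/fl and at 26.4 and 21.1 in CD37 -/-.

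**Figure D2:**
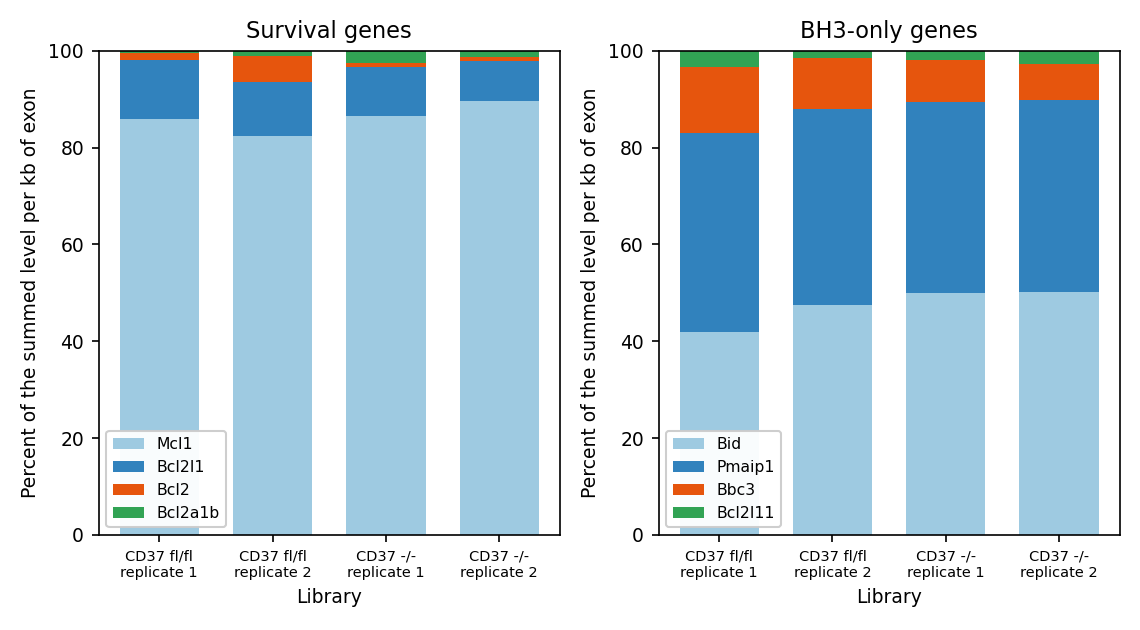
Stacked bars with the percent of the summed level per kb of exon taken by each survival gene (left) and each BH3-only gene (right) in each of the 4 libraries. Mcl1 fills 82.3% to 89.6% of the survival sum, and Bid and Pmaip1 together fill most of the BH3-only sum, in every library.

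The groups were then compared gene by gene, with a limma fit on log2 RPM over the 12095 genes with a mean of at least 1 RPM. All 9 members passed this filter. None had an adjusted p under 0.05, where 1.37% of all genes tested did. At an unadjusted p under 0.05, 2 of the 9 members were called, Bcl2 and Bax, both lower in CD37 -/-, against 26% of all genes tested in either direction, 6.22% in the direction of lower expression and 19.8% in that of higher expression. The groups did not overlap for 5 of the 9 members, against 60.9% of all genes tested. For 3 members (Bcl2, Bax and Bbc3) both CD37 -/- libraries lay below both CD37 fl/fl libraries, which held for 18.6% of all genes tested. For 2 members (Mcl1 and Bcl2a1b) both lay above, which held for 42.2% of all genes tested. Without CD37 fl/fl replicate 2, the library low in neutrophil and erythroid genes, the log2 fold change was -0.84 for Bcl2 and -1.05 for Bax. It was 0.66 for Bid and 1.54 for Bcl2a1b, against a median of 0.27 over all genes tested. With all 4 libraries, the median log2 fold change was 0.09 over the 9 members and 0.24 over all genes tested. The median of all genes moved with the scaling of the libraries, to -0.01 after quantile normalization, 0.05 after division by the upper quartile and 0.60 after rescaling to the same sum of FPKM, and values relative to it are given where they matter.

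**Figure D3:**
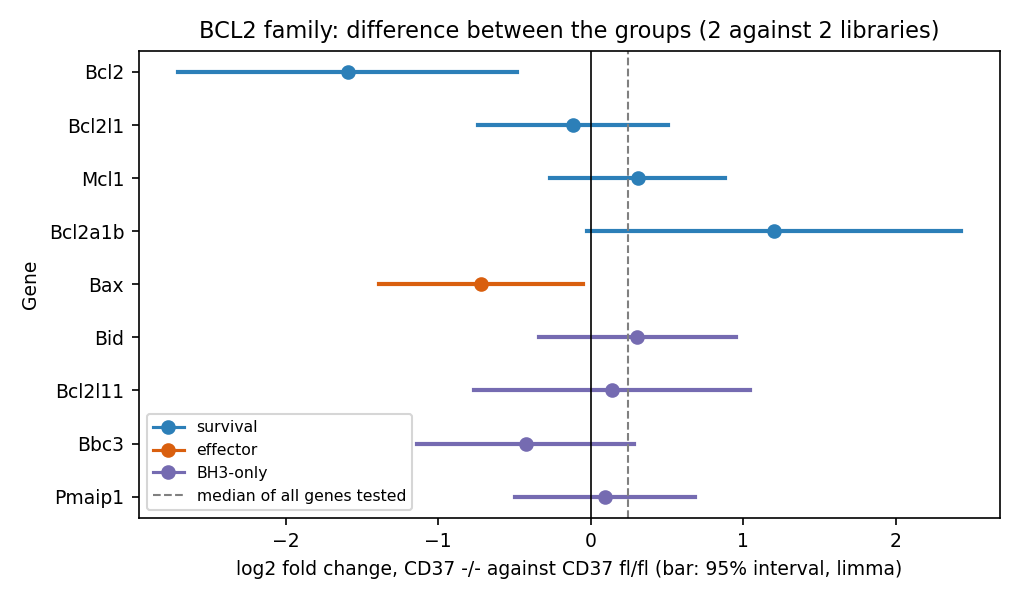
log2 fold change of CD37 -/- against CD37 fl/fl for each of the 9 genes (x axis), with the 95% interval of the limma fit as a bar, coloured by role; the dashed line marks the median of all 12095 genes tested, 0.24. The intervals of Bcl2 and Bax lie below 0, and the other 7 include 0.

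Among the survival genes, Bcl2 was the one called at an unadjusted p under 0.05. It was measured at 19.6 and 56.7 RPM in CD37 fl/fl (301 and 982 reads) and at 9.75 and 11.8 in CD37 -/- (173 and 268 reads). Both CD37 -/- libraries were lower than both CD37 fl/fl libraries, but the 2 CD37 fl/fl libraries differed from each other by 2.89-fold, and the library with the highest Bcl2 was replicate 2, the one that stood apart by its neutrophil and erythroid genes. The group means were 38.2 ± 26.2 and 10.8 ± 1.48 RPM (SD, n = 2). The log2 fold change was -1.59 (SE 0.48, 95% interval -2.71 to -0.48), with an unadjusted p of 0.0107 and a limma adjusted p of 0.0974. Without CD37 fl/fl replicate 2 it was -0.84 (limma adjusted p = 0.229), and without CD37 fl/fl replicate 1 it was -2.35 (limma adjusted p = 0.0150). Relative to the median of all genes it was -1.84, and -1.93 after quantile normalization. Rescaling to the same sum of FPKM (-1.83) and division by the upper quartile (-1.84) multiply all genes of a library by the same factor. These scalings could therefore hardly move the value relative to the median. Bcl2 spans chr1:106538178-106714274 on the minus strand of GRCm38, and an antisense gene, D630008O14Rik, overlaps 33103 bases of it.

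Mcl1 passed neither threshold. It was at 424 and 320 RPM in CD37 fl/fl and at 449 and 465 in CD37 -/-. Both CD37 -/- libraries were higher. The group means, 372 RPM in CD37 fl/fl and 457 in CD37 -/-, lay closer together than the 2 CD37 fl/fl libraries. The log2 fold change of 0.31 (SE 0.25, 95% interval -0.27 to 0.88, limma adjusted p = 0.453) was 0.06 above the median of all genes. Bcl2l1 was at 81.6 and 58.1 RPM in CD37 fl/fl and at 70.1 and 57.4 in CD37 -/-, and these ranges overlapped. The fitted difference was -0.12 on the log2 scale (SE 0.27, 95% interval -0.74 to 0.51, limma adjusted p = 0.813), and it turned to 0.25 after rescaling to the same sum of FPKM.

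Bcl2a1b encodes one of the mouse copies of the survival protein A1, a gene induced by NF-κB and by myeloid growth factors. Only 7 and 18 reads were assigned to it in CD37 fl/fl, against 57 and 36 in CD37 -/-, or 0.457 and 1.04 RPM against 3.21 and 1.59. Both CD37 -/- libraries were higher, and the libraries within each group differed by 2.27-fold and 2.02-fold. The log2 fold change of 1.20 (SE 0.53, 95% interval -0.02 to 2.42) had an unadjusted p of 0.0538 and a limma adjusted p of 0.199. With a pseudocount of 0.5 RPM, it understates the ratio of the means at such low counts.

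Reads of Bcl2a1b are hard to tell from those of its copies, which is why the coding start of it and of Bcl2a1a is shown. The coding sequences of Bcl2a1b and Bcl2a1a, 516 bases each, differ at 11 bases, and those of Bcl2a1b and Bcl2a1d at 6. The longest stretch without a difference has 217 bases in both comparisons. Of the 467 windows of 50 bases in Bcl2a1b, 43.0% occur without a difference in Bcl2a1a and 52.7% in Bcl2a1d, and reads from these windows can be split between or withheld from the copies, depending on how the counting treated them. In addition, Gm29094, a protein-coding gene on the same strand, overlaps 8449 of the 8619 bases of Bcl2a1b, and 0 reads were assigned to it in every library. How reads in such an overlap were counted is not given in the sources used here. The stretches show the first 60 coding bases, in exon 1 of 2, at chr9:89199360-89199419 for Bcl2a1b and chr9:88957051-88957110 for Bcl2a1a, both on the plus strand of GRCm38, with the 5 bases that differ in capitals.
Bcl2a1b: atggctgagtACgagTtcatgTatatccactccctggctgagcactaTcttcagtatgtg
Bcl2a1a: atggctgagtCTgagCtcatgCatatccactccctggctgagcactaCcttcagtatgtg

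Bcl2a1d, the closer copy, had no row among the genes matched to GENCODE M21, so reads assigned to it could not be seen. Bcl2a1a carried far more reads than Bcl2a1b, at 32.9 and 12.6 RPM in CD37 fl/fl against 34.1 and 30.5 in CD37 -/-. Here the groups overlapped, since CD37 fl/fl replicate 1 lay within the CD37 -/- range. Its log2 fold change was 0.65 (SE 0.44, limma adjusted p = 0.372). The low Bcl2a1a value belonged to CD37 fl/fl replicate 2, and the low Bcl2a1b value to CD37 fl/fl replicate 1. The value of Bcl2a1b is therefore uncertain both in its count and in its assignment, and so are its level and share above.

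Bax, the effector that forms pores in the outer mitochondrial membrane, was lower in CD37 -/-. It was measured at 177 and 111 RPM in CD37 fl/fl (2707 and 1931 reads) and at 96.8 and 74.7 in CD37 -/- (1718 and 1690 reads). The groups did not overlap, and the highest CD37 -/- library was close to the lowest CD37 fl/fl library. The library with the highest Bax was CD37 fl/fl replicate 1, the one that stood apart by its macrophage and dendritic cell genes. The group means were 144 ± 46.1 and 85.8 ± 15.7 RPM (SD, n = 2). The log2 fold change was -0.72 (SE 0.29, 95% interval -1.39 to -0.05), with an unadjusted p of 0.0378 and a limma adjusted p of 0.167. It was -0.39 without CD37 fl/fl replicate 1 (limma adjusted p = 0.459) and -1.05 without CD37 fl/fl replicate 2 (limma adjusted p = 0.0850). Relative to the median of all genes it was -0.96, and -0.86 after quantile normalization. Rescaling to the same sum of FPKM (-0.95) and division by the upper quartile (-0.97) could hardly move this value, as for Bcl2. On its own scale the log2 fold change came to -0.35 after rescaling to the same sum of FPKM. Bax lies at chr7:45461697-45466898 on the minus strand of GRCm38, and 915 bases of it overlap Gm45808 on the same strand, to which 38 to 52 reads per library were assigned.

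Bcl2 and Bax thus pointed the same way but were high in different CD37 fl/fl libraries: Bcl2 in replicate 2, Bax in replicate 1. The ratio of Bax to Bcl2 per kb of exon was 52.3 and 11.4 in CD37 fl/fl against 57.7 and 36.6 in CD37 -/-, and these groups overlapped. The difference of 0.91 on the log2 scale had an exact two-sided permutation p of 0.667, where the smallest p that 2 libraries against 2 can give is 0.333. Without CD37 fl/fl replicate 2 the difference was -0.18.

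The BH3-only genes showed no shared direction. Bbc3 was at 20.9 and 23.4 RPM in CD37 fl/fl and at 17.0 and 15.6 in CD37 -/-. Both CD37 -/- libraries were lower, and the libraries within each group lay close together, 1.12-fold and 1.09-fold apart. Its log2 fold change was -0.43 (SE 0.31, 95% interval -1.14 to 0.28, limma adjusted p = 0.403), or -0.67 relative to the median of all genes.

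Pmaip1, which encodes the MCL1-binding protein NOXA, was at 80.6 and 115 RPM in CD37 fl/fl and at 98.9 and 107 in CD37 -/-. Both CD37 -/- values lay between those of CD37 fl/fl. Its log2 fold change was 0.09 (SE 0.26, 95% interval -0.50 to 0.69, limma adjusted p = 0.843). Its sign turned under quantile normalization (-0.079) and under division by the upper quartile (-0.10).

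Bcl2l11, whose product BIM binds all survival proteins, was at 19.5 and 12.3 RPM in CD37 fl/fl and at 13.3 and 22.0 in CD37 -/-. The groups overlapped, and the spread within each group, 1.59-fold and 1.65-fold, exceeded the difference between them. Its log2 fold change was 0.14 (SE 0.39, 95% interval -0.77 to 1.04, limma adjusted p = 0.851), and it turned to -0.25 under quantile normalization and to -0.055 under division by the upper quartile. Bid, which caspase-8 cleaves to link death receptors to the mitochondria, was at 107 and 174 RPM in CD37 fl/fl and at 162 and 176 in CD37 -/-. The single low value was that of CD37 fl/fl replicate 1, and the groups overlapped. Bid had a log2 fold change of 0.31 (SE 0.28, limma adjusted p = 0.511), and -0.046 without that library.

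Over the 4 BH3-only genes, the summed level was 0.497 and 0.910 of the survival sum in CD37 fl/fl against 0.604 and 0.650 in CD37 -/-. These sums leave out Bcl2a1a and Bad. In this ratio the CD37 -/- libraries lay inside the range of the CD37 fl/fl libraries. The log2 difference was -0.10 (exact two-sided permutation p = 1). The ratio of Bcl2l11 to Mcl1 differed by -0.17 (exact permutation p = 1). Of the 4 ratios examined, that of Bcl2 to Mcl1 was the one in which the groups did not overlap: 0.0173 and 0.0660 in CD37 fl/fl against 0.00811 and 0.00951 in CD37 -/-, a log2 difference of -1.94 at the smallest exact permutation p that the design allows, 0.333. Adjusting over the 4 ratios could not bring any p below that value. The log2 difference of Bcl2 to Mcl1 was -0.98 without CD37 fl/fl replicate 2 and -2.91 without CD37 fl/fl replicate 1.

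**Figure D4:**
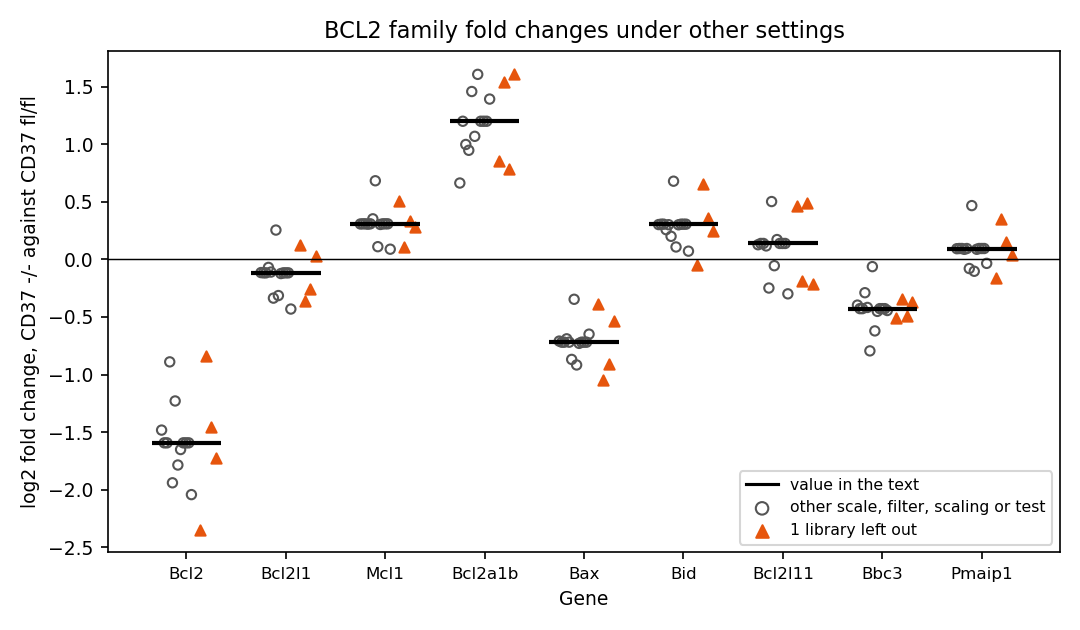
log2 fold change of each of the 9 genes (y axis) as given in the text (black line), under other scales, filters, scalings or tests (open circles) and with 1 library left out (triangles). Bcl2, Bax and Bbc3 stay below 0 and Mcl1 and Bcl2a1b above 0 throughout, and the values of Bcl2l1, Bid, Bcl2l11 and Pmaip1 lie on both sides of 0.

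The direction of Bcl2 was the same in all 16 other settings that gave it a value, with log2 fold changes from -2.35 to -0.84. Bax (-1.05 to -0.35) and Bbc3 (-0.79 to -0.06) were below 0, and Mcl1 (0.09 to 0.68) above it, in all 17. Bcl2a1b (0.66 to 1.61) was above 0 in all 15 that gave it a value. The other 4 genes changed sign in at least 1 setting. The settings are not independent checks of direction. Changing the RPM filter or the variance estimate, or adding the replicate number as a block, left each fold change as it was. The groups did not overlap for Bcl2, Bax, Bbc3, Mcl1 and Bcl2a1b, so leaving out 1 library could not turn their sign.

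Gene length moved with the result over the whole table, which bears on how the members are read. The tested genes were split by exon length into 4 bins of 3021 to 3026 genes. The median log2 fold change was -0.10 in the bin of the shortest genes, and 0.19, 0.33 and 0.43 in the following bins. Bax, Bbc3 and Bcl2a1b belong to the bin of the shortest genes, and Bcl2 and Bcl2l11 to that of the longest. With this trend removed, the log2 fold change of Bcl2 was -2.04, of Bax -0.65 and of Bcl2l11 -0.30.

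The remaining genes of the pathway were described from lists by role, to place the members among their partners. Of the other BCL2 family genes, 7 were tested, and 1 passed an unadjusted p under 0.05: Bcl2l13, a mitochondrial family member with a part in mitophagy. It was at 22.6 and 33.0 RPM in CD37 fl/fl and at 55.9 and 71.9 in CD37 -/- (log2 fold change 1.20, SE 0.30, limma adjusted p = 0.0722). Bcl2l13 overlaps Bid by 913 bases on the opposite strand, and whether the counting used the strand is not given in the sources used here. Bad, a BH3-only gene controlled by AKT phosphorylation of its product, was with Bcl2a1a one of the 2 highest of this list per kb of exon, at 92.2 and 79.0 RPM in CD37 fl/fl and at 67.5 and 54.0 in CD37 -/- (log2 fold change -0.50, limma adjusted p = 0.248). The groups did not overlap for Bad.

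Downstream of the mitochondria, 7 of 15 tested genes of the apoptosome, caspase and voltage-dependent channel list passed an unadjusted p under 0.05. Of these, 5 were higher and 2 lower in CD37 -/-. Of all genes tested, 26% passed this threshold, 19.8% higher and 6.22% lower in CD37 -/-. No gene of the list passed an adjusted p under 0.05. The median of this list was 0.46, against 0.24 for all genes. Casp9, the initiator caspase of the mitochondrial pathway, was at 4.05 and 6.46 RPM in CD37 fl/fl and at 13.0 and 21.6 in CD37 -/- (log2 fold change 1.62, SE 0.43, limma adjusted p = 0.0775). Dffb, the nuclease that cuts DNA between nucleosomes, was at 11.7 in both CD37 fl/fl libraries and at 34.5 and 31.2 in CD37 -/- (log2 fold change 1.45, limma adjusted p = 0.0554). Apaf1, the scaffold of the apoptosome (0.66), Casp2 (0.92) and Casp6 (1.02) were the other 3 with higher values.

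Cycs, cytochrome c itself, went the other way, at 22.8 and 27.9 RPM in CD37 fl/fl and at 16.7 and 9.46 in CD37 -/- (log2 fold change -0.98, SE 0.37, limma adjusted p = 0.150). Vdac3, a channel of the outer mitochondrial membrane, was the second lower gene (-0.61, limma adjusted p = 0.180). The 2 highest genes of the list per kb of exon, Vdac1 and Vdac2, had log2 fold changes of 0.26 and 0.25, close to the median of all genes. Without CD37 -/- replicate 2, 1 of the 15 genes was called, and over all genes the number called went from 3141 to 1173 of 12095.

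Of the 5 inhibitor of apoptosis genes, Xiap, which blocks caspases directly, was called. It was at 11.2 and 15.9 RPM in CD37 fl/fl and at 29.0 and 52.9 in CD37 -/- (log2 fold change 1.52, SE 0.38, limma adjusted p = 0.0724). The highest of this list, Birc5, which encodes survivin and is expressed in dividing cells, was at 359 and 300 RPM in CD37 fl/fl and at 287 and 163 in CD37 -/- (log2 fold change -0.60, limma adjusted p = 0.250). Birc2, the next highest per kb of exon, had a log2 fold change of 0.30 (limma adjusted p = 0.484). Of 8 tested genes of the death receptor branch, the caspase Casp8 (log2 fold change 1.43, limma adjusted p = 0.0945) and its adaptor Fadd (1.14, limma adjusted p = 0.124) were called, both higher in CD37 -/-. Casp8 was at 18.5 and 33.2 RPM in CD37 fl/fl and at 45.8 and 99.2 in CD37 -/-, so the 2 libraries of each group differed widely from each other. The 2 highest genes of this branch per kb of exon were the TNF receptor gene Tnfrsf1a, at 152 and 104 RPM in CD37 fl/fl and at 173 and 192 in CD37 -/- (log2 fold change 0.54, limma adjusted p = 0.233), and the adaptor gene Tradd, whose groups overlapped and whose log2 fold change was -0.0059 (limma adjusted p = 0.991).

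Of 11 tested regulators of the family, 3 were called. Usp9x, a deubiquitinase that stabilises MCL1, was at 10.1 and 15.3 RPM in CD37 fl/fl and at 31.6 and 58.8 in CD37 -/- (log2 fold change 1.75, SE 0.39, limma adjusted p = 0.0599). Bnip3l, a mitophagy receptor that is also used in red cell maturation, was higher (0.84, limma adjusted p = 0.124), in libraries whose erythroid genes were also higher. Bag1, a BCL2-binding co-chaperone, was lower, at 682 and 465 RPM in CD37 fl/fl and at 412 and 271 in CD37 -/- (log2 fold change -0.75, limma adjusted p = 0.169). Ddit3, which encodes the stress factor CHOP and was the second highest after Bag1 per kb of exon, was at 102 and 91.0 RPM in CD37 fl/fl and at 88.4 and 51.3 in CD37 -/- (log2 fold change -0.51, limma adjusted p = 0.308). Of the genes of these lists named here, Tradd turned its sign under another scaling (0.36 after rescaling to the same sum of FPKM), and the others kept theirs under the 3 other scalings. Over the 5 lists, no gene passed an adjusted p under 0.05, and the share called at an unadjusted p under 0.05 ranged from 14.3% of the other BCL2 family genes to 46.7% of the apoptosome list, around the 26% of all genes tested.

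**Figure D5:**
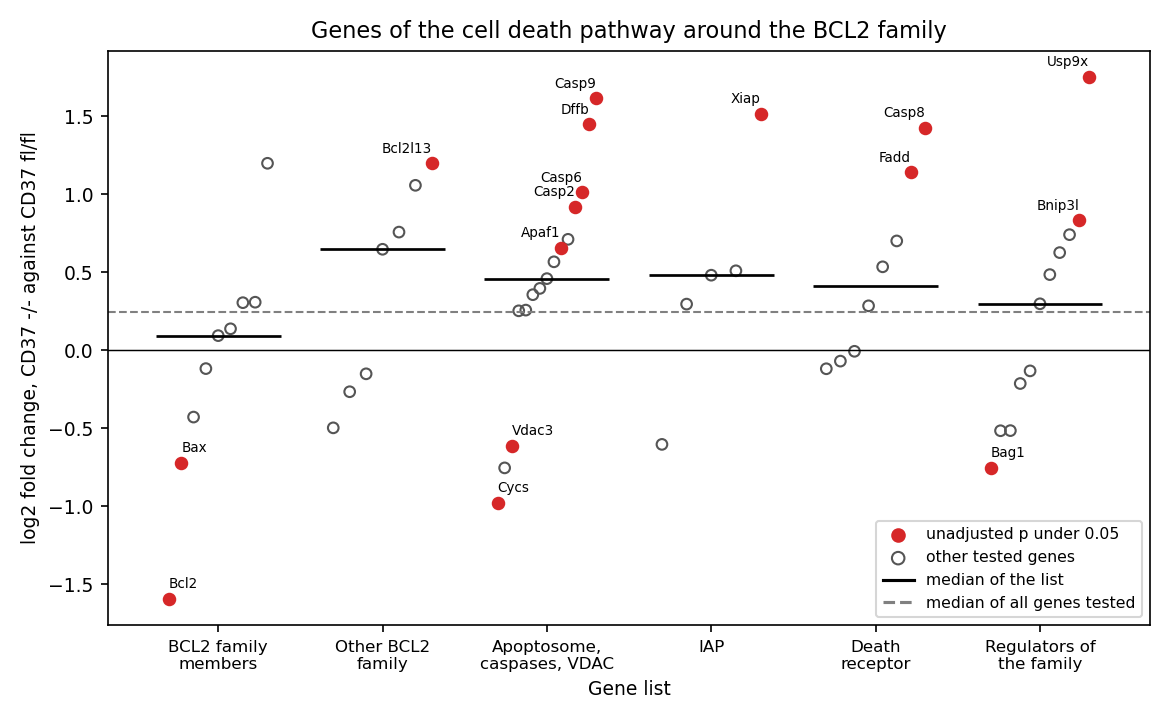
log2 fold change of CD37 -/- against CD37 fl/fl (y axis) for the tested genes of the BCL2 family members and of 5 lists of their pathway (x axis), with genes at an unadjusted p under 0.05 filled and named, a black line at each list's median and a dashed line at the median of all genes tested, 0.24. Bcl2 is the lowest of all genes shown at -1.59, and Usp9x the highest at 1.75.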

How the data were processed

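The deposited table held FPKM values for 4 libraries, which the authors made with fastp 0.20.1, STAR 2.7.7a and featureCounts 2.0.0 on mm39, per the submitters' processing notes, from poly(A), strand-specific libraries. The deposited FPKM divided reads by the whole gene span, introns included: with gene spans of GENCODE M21 (GRCm38), which 17045 of 17104 identifiers matched, about 99% of values became whole reads (tolerance 0.05, chance 10%), against about 10% with exon lengths. Whether intronic reads were counted is not given in the sources used here. Reads per 1000000 reads (RPM) were obtained by multiplying out the span, and were divided by exon length to compare genes. The span was multiplied out because a pseudocount added to FPKM on this scale shrinks the fold changes of genes with long introns. For Bcl2 the log2 fold change was -0.89 with log2(FPKM + 0.1) against -1.59 in the text.

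Genes with a mean of at least 1 RPM were tested with limma 3.58.1 (lmFit and eBayes with a trend, R 4.3.3) on log2(RPM + 0.5), CD37 -/- against CD37 fl/fl, 2 libraries each, with Benjamini-Hochberg adjustment over 12095 genes. Ratios between members were compared with exact two-sided permutation tests (scipy 1.17.1). The script was tested on simulated data. Alternatives changed the pseudocount, filter, scale, library scaling, variance estimate, replicate block and libraries. The 10 members and the pathway and marker lists were chosen with earlier results of these data known. Named genes were all members, Cd37, genes of a pathway list at an unadjusted p under 0.05 and the 2 highest tested genes of a pathway list. Genes that overlap or resemble a member and some of the marker genes were also named. The libraries of each group differed by more than counting noise (chi-square per gene 93.4 and 61.0), so no pair was taken as 1 library deposited more than once. This does not show that they came from separate animals.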

Additional observations from a re-analysis of the deposited data

How the results depend on the processing

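The counts of called genes depended on the processing, and the cause was not tested. Over all genes, 166 passed an adjusted p under 0.05 in the fit of the text. This was 0 with all genes above 0, with log2(FPKM + 1), with log2(FPKM + 0.1), with division by the upper quartile, with limma-voom, without a trend and with the exon length trend removed (an alternative added after seeing the data), 1 after quantile normalization, 268 with robust estimation, 1486 after TPM rescaling, and 0 to 562 with 1 library left out. At an unadjusted p under 0.05 the 3141 genes became 1626 with log2(FPKM + 1), and 1173 to 3106 with 1 library left out. Of the called genes at that threshold, 76.1% were higher in CD37 -/-, against 50.6% after quantile normalization, 55.5% after division by the upper quartile, 94.6% after TPM rescaling and 50.8% with the length trend removed.

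Of the members, 0 passed an adjusted p in the text and 0 to 1 with 1 library left out (Bcl2, without CD37 fl/fl replicate 1). At an unadjusted p, 2 were called, 0 with either FPKM scale, and 1 to 3 with 1 library left out. Bcl2 and Bcl2l11 were below the filter of log2(FPKM + 1), and Bcl2a1b below that and the filter of 5 RPM, so these gave no value. Signs turned for Bcl2l1 (0.25 after TPM rescaling, -0.36 to 0.13 with 1 library left out), Bid (-0.046 to 0.66 with 1 library left out), Bcl2l11 (-0.25 after quantile normalization, -0.055 with the upper quartile, -0.30 with the length trend removed, -0.21 to 0.49 with 1 library left out) and Pmaip1 (-0.079, -0.10 and -0.035 in the same 3, -0.16 to 0.35 with 1 library left out). With 1 library left out, the log2 difference of the ratio of Bax to Bcl2 ranged from -0.18 to 2.01, of the BH3-only to the survival sum from -0.54 to 0.33, and of Bcl2l11 to Mcl1 from -0.50 to 0.17. For Bcl2 to Mcl1 it ranged from -2.91 to -0.98. The mean share of Mcl1 in the survival sum was 86.1% per kb of exon and 98.3% per kb of span. Cd37 (-1.15) passed an adjusted p with the filter of 5 RPM, with robust estimation and with the block.

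For the pathway lists, 0 genes passed an adjusted p in the text. After TPM rescaling this was 1 of the other BCL2 family genes, 4 of the apoptosome list, 1 inhibitor of apoptosis, 1 death receptor gene and 2 regulators, and 1 apoptosome gene passed with the filter of 5 RPM and with robust estimation. At an unadjusted p the other BCL2 family genes went from 1 to 2 under quantile normalization, TPM rescaling, the upper quartile, no trend and the length trend removed, and 1 to 3 with a library left out. The apoptosome list went from 7 to 4 with log2(FPKM + 1), 11 after TPM rescaling, 4 with the length trend removed, and 1 to 7 with a library left out. The inhibitors of apoptosis went from 1 to 0 with log2(FPKM + 1), 2 after TPM rescaling, the upper quartile and the length trend removed, and 0 to 2 with a library left out. The death receptor genes went from 2 to 1 with either FPKM scale and quantile normalization, 4 with the length trend removed, and 0 to 3 with a library left out. The regulators went from 3 to 1 with log2(FPKM + 1), and 1 to 5 with a library left out.

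The 2 groups share replicate numbers, but nothing pairs same-numbered libraries, whose deviations correlated at -0.06. With the replicate number as a block, 645 genes passed an adjusted p under 0.05, 1 gene of each of the 5 pathway lists did, Bcl2 had an adjusted p of 0.0518, and no member passed. A library left alone in its group was assumed to vary like the other group.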
